A study of Rattus norvegicus with 14 samples.

Results

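The comparison described here sets soleus muscle after long-term tenotomy against control soleus in the rat. It takes all arrays whose sample group label is long-term immobilized or control, 8 of the 14 arrays of the series. The soleus is a slow postural muscle of the calf, and in tenotomy its tendon is severed so that the muscle stays in place but carries no load. The 4 long-term arrays are right muscles, 2 taken at 6 weeks (rats 61 and 62), 1 at 16 weeks and 1 at 22 weeks, each of another rat. The 4 control arrays are left muscles, called control 1 (rat 62), controls 2 and 3 (each of a rat with no other array) and control 4 (rat 61). All rats were male Sprague Dawley rats with free access to food and water under a day and night cycle. Rats 61 and 62 therefore gave both a control and a long-term muscle, and the 8 arrays come from 6 rats. The labels give no age for the controls, do not say what was done to the left legs, and give no date of labelling or scanning. Side and tenotomy cannot be told apart, since every control was taken from the left leg and every tenotomized muscle from the right. The other 6 arrays of the series are muscles tenotomized for 1 to 4 weeks, and they appear below only as a range beside some values.

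Slow muscle fibres contain the slow myosin heavy chain Myh7 and rely on mitochondrial oxidation, while fast fibres contain Myh2, Myh1 or Myh4 in rising order of speed. Embryonic and neonatal muscle uses Myh3 and Myh8, which adult muscle makes again when fibres regenerate or lose their nerve. Loss of load is known to shrink the soleus, to shift slow fibres towards fast isoforms and to raise collagen between the fibres. Whole muscle also holds fibroblasts, macrophages, endothelium, fat cells, nerve and some tendon. In whole-tissue samples fewer cells of a type and less RNA per cell cannot be told apart.

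Values are log2 probe set signals after each array was shifted to a common median, and the difference given for a gene is the long-term mean minus the control mean on that scale. In what follows, control values stand in the order of controls 1 to 4, and long-term values in the order of 6 weeks (rat 61), 6 weeks (rat 62), 16 weeks and 22 weeks. The labelled tissue held on every array: the summed signal of 12 skeletal muscle identity genes was 85898 to 114167 on the controls and 94604 to 135494 on the long-term arrays. An array gives no read depth, and the precision of a difference depended on the number of arrays, the spread between them and the signal. The labels do not say whether muscles were processed separately, so the p-values measure the spread between these arrays, some of which may be technical.

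The 22-week array stood apart from the other 7. It lay more than 2-fold below all of them in 112 genes and more than 2-fold above all of them in 33, while the other 3 long-term arrays did so in 13 to 17 and in 0 to 6 genes. On the controls these counts were 10 to 21 below and 0 to 24 above, with the 24 on control 3. The principal component with the most variance (27.7%) placed the 22-week array at 50.0 and the other 7 arrays between -13.7 and 1.5. The component after it (24.8%) separated the 4 arrays of rats 61 and 62 (1.39 to 24.3) from controls 2 and 3 and the 16-week array (-24.5 to -18.6), whose rats carry consecutive numbers in the labels, and each of these sets held both control and long-term muscle. With the array medians aligned, its median tested gene still lay 0.22 above the control mean, against -0.08 to 0.02 on the other 3 long-term arrays and -0.43 to -0.23 on the 1-to-4-week arrays. The signal of the poly-A spike-in controls was 249 on the 22-week array and 103 to 128 on the other 7. Its 3' to 5' ratio of actin probe sets, which bears on RNA quality, was 3.74, against 1.39 to 2.37. The same ratio for Gapdh did not set this array apart from the controls, at 2.78 both there and on control 1. Between the groups none of 9 such technical measures passed a test, with the smallest p at 0.114 in an exact 2-sided permutation test, which became 0.845 on adjusting over all 9. What these measures contribute to the results below was not tested. The difference in spread is therefore also given without the 22-week array. So are the medians of the matrix, protease, fibroblast, macrophage, lymphocyte, mast cell, tendon, developmental, denervation and clock lists. The slow fibre, respiratory chain, tricarboxylic acid cycle and ubiquitin ligase lists are treated likewise.

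No gene passed the test between long-term tenotomized and control soleus. Of 10539 genes tested, 0 (0%) had an adjusted p under 0.05 (limma, Benjamini-Hochberg), and the smallest adjusted p was 0.9999. At an unadjusted p under 0.05 there were 245 genes (2.32%), 147 of them higher (1.39%) and 98 lower (0.93%) in long-term muscle. All 4 long-term arrays lay above all 4 controls in 89 genes (0.844%) and below them in 77 (0.731%). The mean difference passed 2-fold in 60 genes (0.569%), 38 higher (0.361%) and 22 lower (0.209%). The 4 other scalings tried also called 0 genes, and so did the fit with rat as a random replicate block (270 genes at an unadjusted p under 0.05).

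The size of what could have been missed can be stated gene by gene. The 95% interval of the difference, from limma and not adjusted for the number of genes, lay inside 2-fold for 9233 genes (87.6%) and inside 1.5-fold for 5377 (51%). For the remaining 1306 genes a difference past 2-fold in at least 1 direction lay within the interval. A gene with the median standard error of 0.20 needed a log2 difference of 0.43 (1.35-fold) for its interval to leave out 0. To be the first gene called after adjustment it would have needed 1.53 (2.88-fold). The limit depended on signal: in the dimmest 20% of genes (mean log2 signal 4.04 to 5.92) the interval lay inside 2-fold for 59.3%, and in the brightest 20% (9.54 to 13.4) for 97.5%. The median interval reached 0.69 to either side of the estimate in the dimmest set and 0.35 in the brightest.

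Slow fibre genes had narrow limits. Myh7, the slow myosin heavy chain, read 13.41, 13.42, 13.57 and 13.12 on the controls and 13.41, 13.28, 13.36 and 13.85 on the long-term arrays. The ranges overlap, and the difference was 0.09 ± 0.15 (SE, n = 4 and 4). On this probe set the 95% interval of -0.24 to 0.43 leaves out a difference of 1.5-fold in either direction. The other Myh7 probe set, which was dimmer, differed by 0.24 (unadjusted p = 0.26 by limma). Tnni1, the slow troponin I, differed by 0.08 (interval -0.24 to 0.39). Of 12 slow fibre genes tested, 0 were called, 11 had an interval inside 2-fold and 10 inside 1.5-fold, and their median difference was 0.09 beside 0.02 for all genes tested. The exception was Pln, the inhibitor of the calcium pump, at -0.19 (interval reaching to -1.31), whose controls alone read 7.0 to 10.06. Csrp3, a LIM protein of the Z-disc that takes part in load sensing, was the slow fibre list member with the smallest p. Its controls read 12.22, 12.00, 12.49 and 12.18 and its long-term arrays 12.64, 12.51, 12.59 and 13.004. All 4 long-term arrays lay above every control, with a difference of 0.46 (interval 0.13 to 0.79, unadjusted p = 0.010 by limma).

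**Figure D1:**
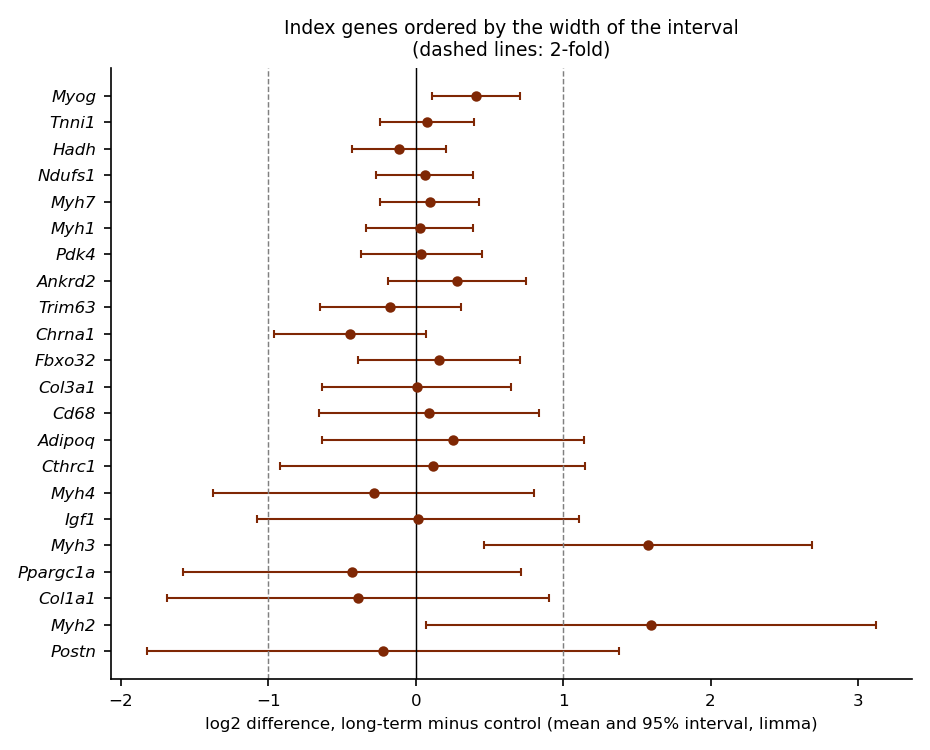
Log2 difference of the 22 tested index genes (long-term minus control, 4 arrays each), with the 95% interval from limma as bars and 2-fold as dashed lines, ordered by the width of the interval. Myog, Tnni1, Hadh, Ndufs1 and Myh7 lie at the narrow end with intervals well inside 2-fold, while those of Postn, Myh2, Col1a1 and Ppargc1a reach past it.

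Mitochondrial, glycolytic and proteolytic genes were also limited to small differences. On the brightest probe set of each gene, all 25 genes of the tricarboxylic acid cycle and pyruvate oxidation had an interval inside 1.5-fold. So had 54 of 56 genes of the respiratory chain and ATP synthase. The median differences of these 2 lists were 0.03 and 0.06, and -0.09 and -0.05 without the 22-week array. A dimmer probe set of Pdk2 differed by 1.38 (means of 5.88 on the controls and 7.26 on the long-term arrays), beside -0.19 on the brightest. Ndufs1, a subunit of respiratory complex I, differed by 0.06 (interval -0.27 to 0.39), and Hadh, an enzyme of fatty acid oxidation, by -0.12 (-0.44 to 0.20). Pdk4, the kinase that shuts off pyruvate dehydrogenase when fat is burned, differed by 0.04 (-0.37 to 0.45). All 26 glycolysis and glycogen genes tested had an interval inside 2-fold, as had all 30 proteasome subunits, all 14 autophagy genes and all 26 cytosolic ribosomal protein genes. Ppargc1a, the coactivator of mitochondrial biogenesis, had a wider limit of -1.58 to 0.72, with control 3 at 11.34 and the other 7 arrays between 8.40 and 9.23.

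The ubiquitin ligases that mark muscle wasting stayed within 2-fold. Trim63 read 10.30, 10.29, 11.22 and 10.32 on the controls and 10.33, 10.07, 10.73 and 10.31 on the long-term arrays, a difference of -0.17 (interval -0.65 to 0.31). Fbxo32 differed by 0.16 (-0.39 to 0.71), and the groups overlapped in both genes. In their list 15 of 17 tested genes had an interval inside 2-fold, with a median of 0.12 (0.01 without the 22-week array) and 0 called. Eif4ebp1, a brake on translation, had the lowest value of the list at -0.67, with an interval down to -1.49. Among 11 denervation response genes tested the median was 0.22 and 7 had an interval inside 2-fold. Without the 22-week array that median was 0.09, and in the fit of rats 61 and 62 alone it was 0.04. Chrna1, a subunit of the acetylcholine receptor at the nerve junction, differed by -0.45 (-0.96 to 0.07).

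Myog, a myogenic transcription factor that also belongs to the denervation response, did not overlap between the groups. Its controls read 9.80, 9.72, 9.93 and 9.61 and its long-term arrays 10.13, 10.01, 10.28 and 10.27. The difference was 0.41 (interval 0.11 to 0.71), with an unadjusted p of 0.011 by limma and no call after adjustment. The embryonic myosin Myh3 was high on 3 of the 4 long-term arrays and on 1 control: its controls read 8.45, 8.80, 8.75 and 10.74 and its long-term arrays 11.10, 10.68, 9.49 and 11.77. The 1-to-4-week arrays read 10.38 to 12.21. The difference of Myh3 was 1.58 (interval 0.47 to 2.69, unadjusted p = 0.0092 by limma), and the high control was control 4, the left muscle of rat 61. Within rat 61 the tenotomized muscle read 0.36 above its own control, and within rat 62 it read 2.22 above. The neonatal myosin Myh8 was too dim to be tested. It lay at or near the floor of 3.28 on all 4 controls (up to 3.56) and on the 16-week array, and read 5.56, 5.14 and 5.48 at 6, 6 and 22 weeks. Of 11 developmental and myogenic genes tested, 0 were called, 3 had an unadjusted p under 0.05, all higher (Myh3, Myl4 and Myog; 1.39% of all genes tested were higher at that p), and the median was 0.26. Without the 22-week array the median was 0.09, and in the fit of rats 61 and 62 alone it was 0.0068. The 22-week array was the highest of the 8 in 6 of the 11 genes, against 41% of all genes tested. Myl4, an embryonic and atrial light chain, differed by 0.70 (0.23 to 1.16).

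Fast fibre genes had the widest limits of any contractile class, with most of the spread among the controls. Only 5 of 16 had an interval inside 2-fold. Myh2, the fast oxidative myosin, read 12.996 and 13.035 on controls 1 and 2, and 10.05 and 9.24 on controls 3 and 4. On the long-term arrays it read 12.92, 12.72, 12.89 and 13.18, so the long-term values matched the high pair of controls. The difference of 1.59 (interval 0.07 to 3.12, unadjusted p = 0.042 by limma) therefore rests on the low pair: within rat 61 the difference was 3.67, and within rat 62 it was -0.28.

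The same low pair of controls was seen in other fast fibre genes. Tnni2, the fast troponin I, read 12.44, 12.58, 8.65 and 7.20 on the controls and 11.92, 11.90, 12.12 and 11.69 on the long-term arrays. Tnnt3, the fast troponin T, read 12.42, 12.51, 8.78 and 7.36 on the controls and 11.76, 11.93, 12.00 and 11.63 on the long-term arrays. In 8 of the 16 genes measured controls 3 and 4 both lay below the other 6 arrays, and in 5 of these (Myh2, Tnni2, Tnnc2, Tnnt3 and Tpm1) by more than 2-fold. Tpm1, a tropomyosin, differed by 1.13 (interval -0.12 to 2.39), and Tnnc2, the fast troponin C, by 0.79 (-0.11 to 1.69). Myh1 did not follow this order, at 12.71, 12.74, 12.94 and 12.46 on the controls and 12.52, 12.49, 12.81 and 13.14 on the long-term arrays. Its difference was 0.03 (interval -0.34 to 0.39), though this probe set can bind several related transcripts. The other 4 Myh1 probe sets differed by -0.53, 0.07, 0.12 and 0.17. Myh4 was dim on all 8 arrays (3.78 to 6.33). The summed signal of the fast fibre list was 34512 and 30273 on controls 3 and 4, 70051 and 72247 on the other pair, and 60173 to 74503 on the long-term arrays.

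Mybpc2, the fast myosin binding protein C, ran the other way. It read 10.06, 8.82, 5.19 and 4.57 on the controls and 5.77, 5.14, 6.36 and 5.39 on the long-term arrays, so that here the long-term values lay near the low pair of controls. The difference over all 8 arrays was -1.49 (interval -3.61 to 0.62). Without controls 3 and 4, an alternative chosen after the values were seen, Mybpc2 was the 1 gene called, at -3.77 (adjusted p = 0.0045, limma). Those controls were left out because of Myh2, a gene of the same class, so this value is a description and not a test.

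**Figure D2:**
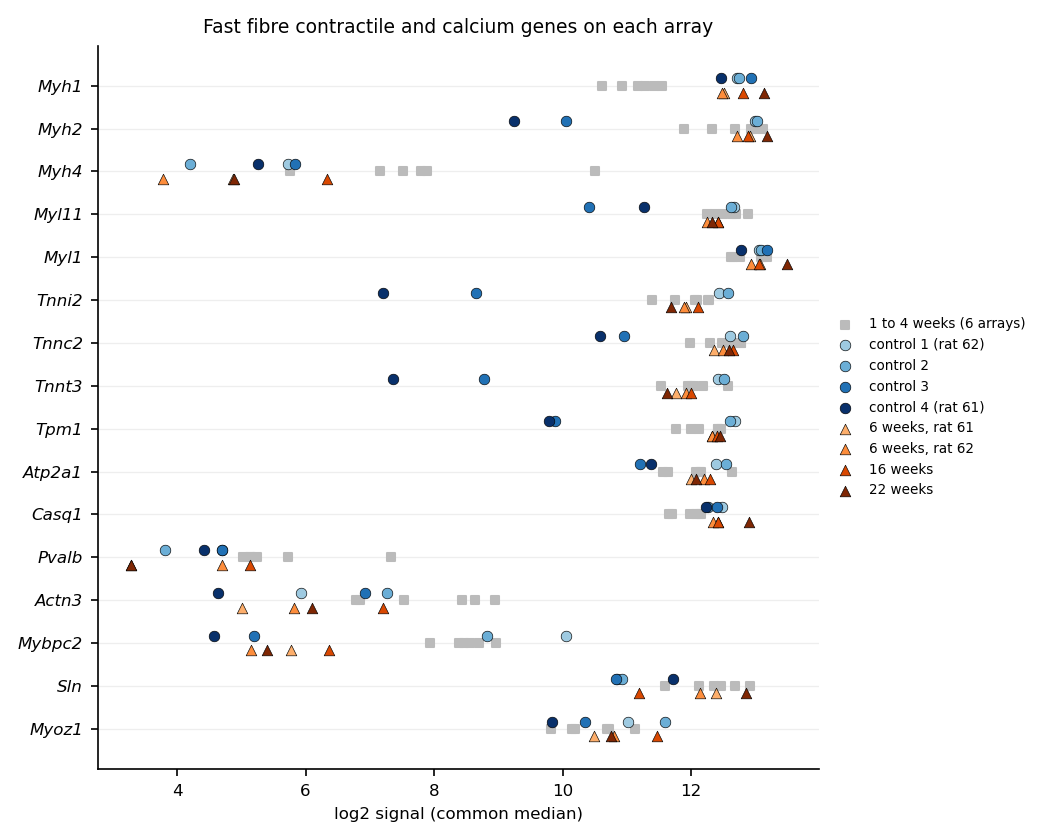
Log2 signal (common median) of 16 fast fibre contractile and calcium genes on each control (circles), each long-term array (triangles, by week) and the 6 arrays of 1 to 4 weeks (grey squares). Controls 3 and 4 lie far to the left of the other arrays in Myh2, Tnni2, Tnnt3 and Tpm1, and the 4 long-term arrays lie close together beside controls 1 and 2.

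The 10 higher and 10 lower genes with the smallest p-values are given as values, since none was called. They were chosen by p on these same arrays, which favours genes whose groups do not overlap. Over all genes tested, 0.844% were higher and 0.731% lower without overlap. Mamdc2, an extracellular matrix proteoglycan, had the smallest p of all. It read 6.70, 6.33, 6.80 and 7.01 on the controls and 8.41, 7.95, 7.23 and 8.20 on the long-term arrays. The groups did not overlap, and the difference was 1.24 ± 0.25 (SE, n = 4 and 4; interval 0.70 to 1.78). Mybph, a myosin binding protein of the thick filament, had the highest difference among the genes that were higher, at 2.01 (interval 0.99 to 3.04). Its controls read 6.02, 6.98, 7.17 and 8.21, its long-term arrays 8.87, 8.73, 8.36 and 10.47, and the 1-to-4-week arrays 9.37 to 11.77. The long-term arrays of Mybph thus lay above every control, and 3 of the 4 lay below the range of the short-term arrays. Fxyd6, a regulator of the sodium pump, differed by 1.12 (0.54 to 1.70), and Pabpn1, the nuclear poly(A) binding protein, by 0.58 (0.23 to 0.93), both without overlap. Other Pabpn1 probe sets differed by 0.28 and 0.28. Spmip6, a protein of sperm microtubules, also did not overlap, at 1.31 (0.65 to 1.97).

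The other 5 higher genes overlapped between the groups through single arrays. Myoz3, a Z-disc protein that binds calcineurin, read 9.09, 8.19, 7.53 and 9.71 on the controls and 10.39, 10.20, 9.46 and 10.34 on the long-term arrays. Its difference was 1.47 (interval 0.62 to 2.31), and its second probe set read 1.88. Tppp3, a tubulin binding protein, differed by 0.74, the ectoenzyme Enpp3 by 0.73, Rfx2, a transcription factor of cilia genes, by 0.92, and Fam216b by 1.34. In all 10 higher genes the 16-week array was the lowest of the 4 long-term arrays. In Tppp3, for example, it read 10.74 beside 11.63, 11.57 and 11.61 on the others, and lay inside the control range of 10.43 to 10.93.

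Some lower genes showed the same kind of split. Padi2, a peptidyl arginine deiminase, read 8.36, 9.58, 8.20 and 8.80 on the controls and 7.33, 6.64, 8.29 and 6.503 on the long-term arrays. Its 16-week value lay within the control range and the other 3 below it. The difference was -1.54 (interval -2.37 to -0.71), and the 1-to-4-week arrays lay lower still, at 4.60 to 6.53. Reep6, a protein of the endoplasmic reticulum, read 7.96, 8.93, 8.83 and 7.52 on the controls and 6.36, 6.30, 8.29 and 6.63 on the long-term arrays, again with the 16-week value among the controls and a difference of -1.42. The 16-week array was the nearest to the controls in 5 of the 10 lower genes and the 6-week array of rat 61 in 4. The 6-week array of rat 62 was the nearest in 1 and the 22-week array in 0.

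Of the 10 lower genes, chosen for small p-values on these same arrays, 7 did not overlap between the groups (0.731% of all genes tested). Ppif, the mitochondrial cyclophilin, read 9.40, 9.05, 9.17 and 9.30 on the controls and 8.77, 8.78, 8.91 and 8.60 on the long-term arrays, a difference of -0.46 (interval -0.78 to -0.15). Borcs8, a subunit of a lysosome positioning complex, had the smallest p among them at -0.81, while its other probe set read 0.17. Gnpda2, a glucosamine phosphate deaminase, differed by -0.70 and Ttc28 by -0.68. Other Ttc28 probe sets read -0.18, -0.15 and -0.59. LOC100912310 differed by -0.46 and the dim genes Fam167a and Naglt1 by -1.22 and -1.07. Lsm10, a component of the histone mRNA processing particle, overlapped by little, at -0.64.

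**Figure D3:**
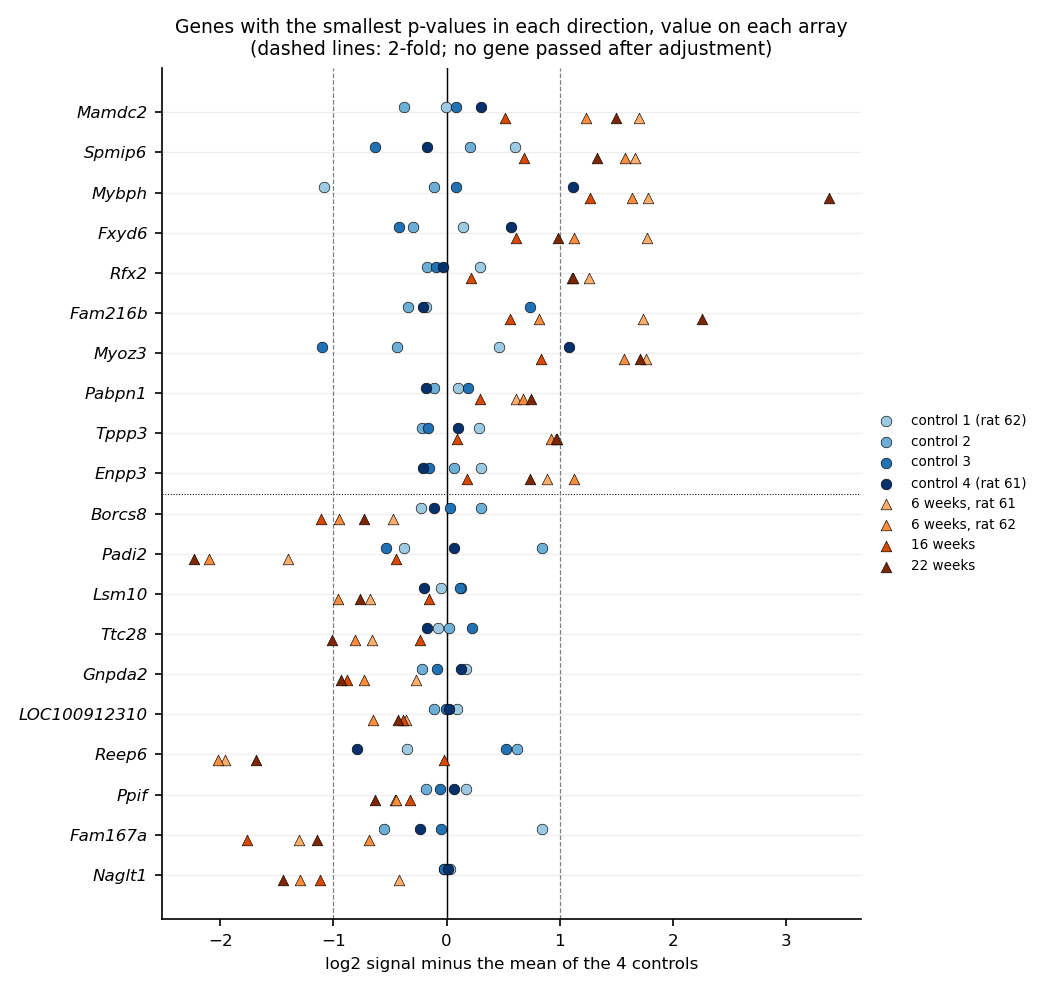
Log2 signal minus the mean of the 4 controls for the 10 higher and 10 lower genes with the smallest p-values, on each control (circles) and each long-term array (triangles, by week), with 2-fold as dashed lines. In the upper 10 genes the 16-week triangle is always the one nearest the controls, and in Padi2 and Reep6 it lies among them.

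Rats 61 and 62 allow a comparison within an animal at 6 weeks. Among the pairs of a control and a long-term array the deviations from the group means correlated at 0.44 for rat 61 and 0.23 for rat 62. Pairs from different rats ranged from -0.33 to 0.31, and control 2 with the 16-week array gave the highest of these. In the fit of these 2 rats alone with rat as a replicate block, 147 genes were called (1.39%; limma, adjusted p under 0.05), 63 higher (0.598%) and 84 lower (0.797%). That fit has 1 residual degree of freedom, so its variances come almost wholly from all genes together. Of the 147 genes, 95 (64.6%) had the same direction in the other rats (the 16- and 22-week arrays against controls 2 and 3), beside 39.7% of all genes tested. The median gene differed by -0.08 within rats 61 and 62 and by 0.14 in the other rats, so 39.7% is not an even baseline. The part of this shift in both shares was not tested. All long-term arrays lay on the called side of all controls in 10 of the 147, while 1.58% of all genes tested did not overlap in either direction. Over the 8 arrays 40 of the 147 had an unadjusted p under 0.05 (limma), beside 2.32% of all genes tested. The 8 arrays include those of these 2 rats, so neither count is independent of the calls. Of the 20 genes above, which include these same arrays in their choice, 14 were called within the 2 rats, the 10 higher ones and Padi2, Reep6, Lsm10 and Ppif. Mybph read 0.66 above the control within rat 61 and 2.72 above it within rat 62, and Padi2 differed from it by -1.47 and -1.72.

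Gene lists for the remaining classes are described by their counts and medians. None of 33 lists held a called gene, and the median difference lay between -0.16 and 0.26 in 32 of them. The skeletal muscle identity genes (12 of 12), sarcomere scaffold genes (17 of 17) and chaperones (27 of 29) mostly had intervals inside 2-fold. Hspa1a, the inducible heat shock protein, was the chaperone with the smallest p: its controls read 10.51, 9.97, 10.88 and 10.74 and its long-term arrays 11.51, 10.97, 10.88 and 11.47, a difference of 0.68 (interval 0.22 to 1.15). Sln, sarcolipin, an inhibitor of the calcium pump, read 10.86, 10.93, 10.83 and 11.71 on the controls and 12.39, 12.13, 11.18 and 12.86 on the long-term arrays. The difference was 1.06 (0.39 to 1.74), with the 16-week array and control 4 in the overlap. Fst, follistatin, the antagonist of myostatin, differed by 0.61 on its brighter probe set and by 1.11 on the other (unadjusted p = 0.0015 by limma). On the brighter one the 6-week array of rat 61 read 7.98 and the other long-term arrays 6.57 to 6.98. Without that array the Fst difference was 0.32, and within rats it was 1.43 for rat 61 and 0.08 for rat 62. Myostatin itself (Mstn) was at or near the floor on all 8 arrays and was not tested.

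**Figure D4:**
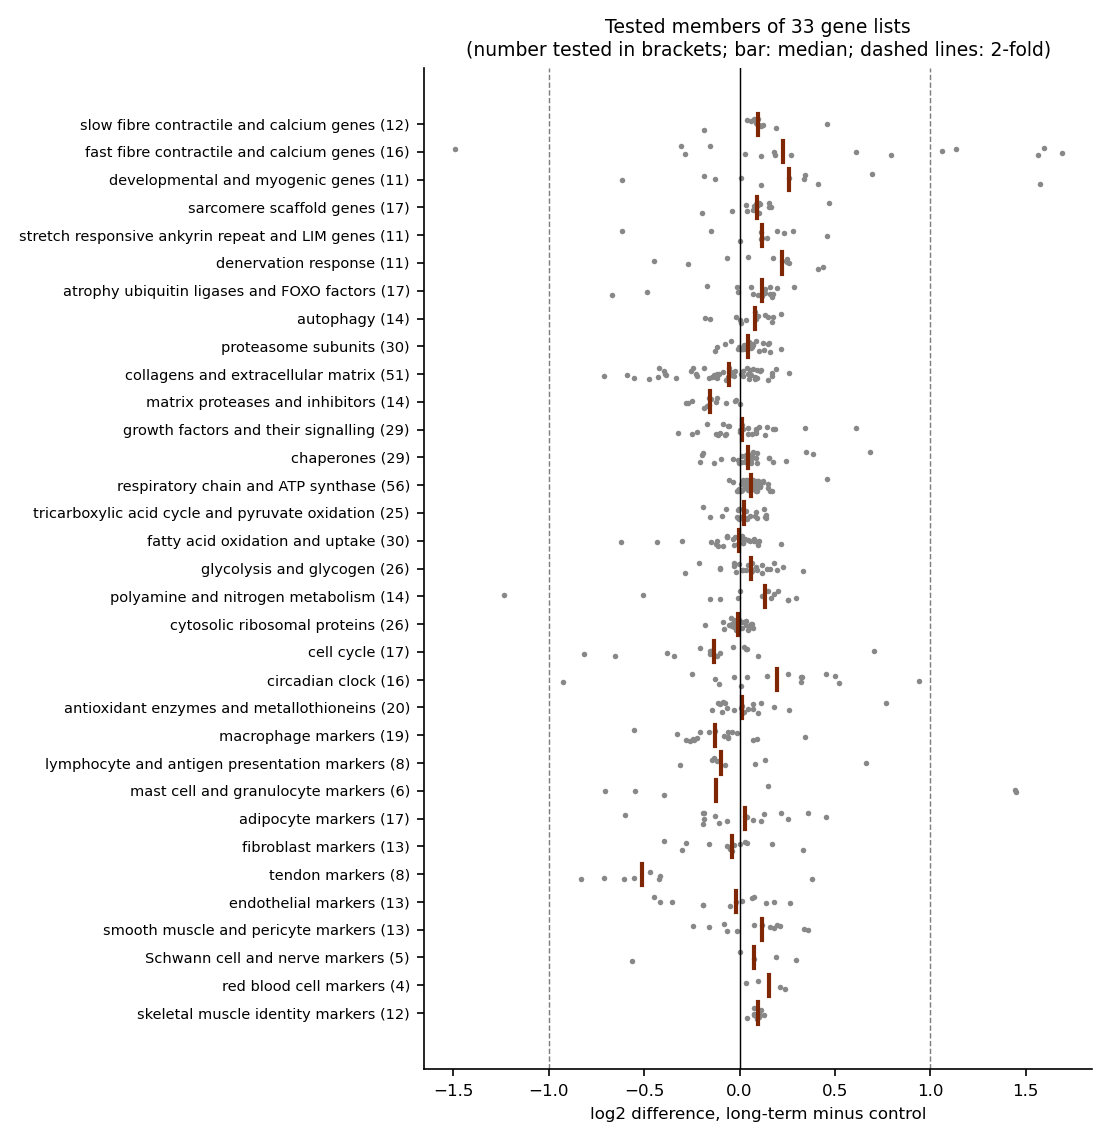
Log2 difference (long-term minus control) of each tested member of 33 gene lists (grey points), with the median as a bar, the number tested in brackets and 2-fold as dashed lines. Mitochondrial, ribosomal and proteasome genes cluster within a narrow band around 0, the fast fibre genes spread from -1.49 to 1.69, and the tendon markers have the lowest median at -0.51.

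Collagen and matrix genes had no called member, wide limits and long-term arrays that disagreed with each other. Of 51 tested genes 0 were called and 0 had an unadjusted p under 0.05, the median was -0.06, and 38 had an interval inside 2-fold. Col1a1, the main fibrillar collagen chain, read 10.64, 9.02, 9.24 and 10.42 on the controls and 10.57, 10.69, 8.82 and 7.67 on the long-term arrays. The difference of -0.39 has an interval of -1.69 to 0.91, and the 1-to-4-week arrays read 11.96 to 13.33, above all 8. Postn, periostin, a matrix protein of remodelling tissue, read 9.28, 7.31, 7.79 and 10.63 on the controls and 9.67, 9.69, 8.02 and 6.75 on the long-term arrays. Col3a1 had a difference of 0.01 (-0.63 to 0.65).

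The order of the long-term arrays was the same over the matrix list. Relative to the median gene of each array, the median matrix gene lay 0.45 and 0.47 above the control mean on the 2 arrays of 6 weeks, at -0.18 on the 16-week array and at -1.08 on the 22-week array. The controls, each set against the other 3, ran from -0.30 to 0.26, and the 1-to-4-week arrays from 1.16 to 2.44. The 22-week array was the lowest of the 8 in 40 of 51 matrix genes, against 12.4% of all genes tested. With the 6-week arrays alone against the controls the list median was 0.43, with the 16- and 22-week arrays alone it was -0.53, and without the 22-week array it was 0.20. Dcn, decorin, a small proteoglycan of collagen fibrils, read 11.78 to 12.04 on the controls, 12.15, 12.05 and 11.86 at 6, 6 and 16 weeks and 10.03 at 22 weeks.

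Of the other cell types, several marker lists were lowest at 22 weeks, among them those of fibroblasts, macrophages and lymphocytes. The fibroblast list lay at 0.42 and 0.44 on the 6-week arrays, -0.12 at 16 weeks and -1.18 at 22 weeks, and the macrophage list at 0.05, 0.63, -0.04 and -1.37. The controls ran from -0.19 to 0.20 in the fibroblast list and from -0.77 to 0.63 in the macrophage list, a range that holds the macrophage values at 6 and 16 weeks. The lymphocyte and antigen presentation list lay at 0.06, 0.71, 0.02 and -1.12, with controls from -0.80 to 0.57. The mast cell and granulocyte list lay at 0.11, 0.45, 0.26 and -1.34, with controls from -0.41 to 0.62. At 22 weeks 3 of its 6 genes were the lowest of the 8 and 2 the highest. Without the 22-week array the list median was 0.24 for fibroblast (-0.04 with it), 0.18 for macrophage (-0.13 with it) and 0.14 for matrix protease genes (-0.16 with it). It was 0.37 for lymphocyte and antigen presentation genes (-0.10 with that array) and 0.21 for mast cell and granulocyte genes (-0.13 with it). Not every list had both 6-week arrays above the 16-week array and that above the 22-week array. The adipocyte list (-0.07, -0.06, 0.11 and -0.45), the endothelial list (0.30, -0.12, 0.03 and -0.54) and the smooth muscle list (0.09, 0.04, 0.18 and -0.20) did not. Nor had the red blood cell list (0.61, 0.93, -0.63 and -0.31) or the Schwann cell list (0.32, 0.10, 0.13 and -0.13). The same held for the tendon list (0.68, -0.54, -0.16 and -2.33) and the mast cell and granulocyte list. The 22-week array was the lowest of the 8 in 11 of 13 fibroblast, 15 of 19 macrophage and 6 of 8 lymphocyte and antigen presentation genes. It was also the lowest in 6 of 8 tendon and 11 of 14 matrix protease genes, against 12.4% of all genes tested. The summed signal of the macrophage list was 4604 to 5800 on the controls and 3664 to 6194 on the long-term arrays, with 1 of 21 measured members near the floor, and 7621 to 17528 at 1 to 4 weeks. The tendon list had the lowest median of all at -0.51, but without the 22-week array it was -0.05, and no member had an interval inside 2-fold. Thbs4, Tnc and Fmod stand in both the tendon and the matrix list. The same array was above the other 7 in 49 of 56 respiratory chain, 22 of 25 tricarboxylic acid cycle and 23 of 30 proteasome genes, against 41% of all genes tested. The part of cell type makeup in these values was not tested.

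**Figure D5:**
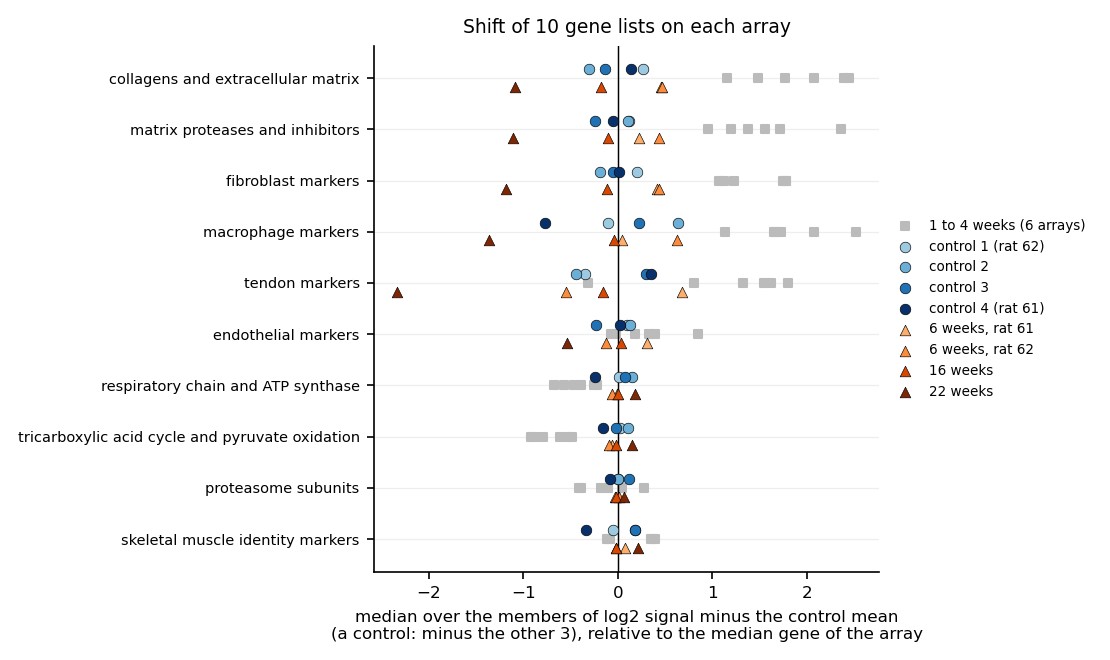
Median over the members of 10 gene lists of log2 signal minus the control mean (a control is set against the other 3 controls), relative to the median gene of the array, for the controls (circles), long-term arrays (triangles) and the 6 arrays of 1 to 4 weeks (grey squares). The 22-week array lies far to the left in the matrix, protease, fibroblast, macrophage and tendon lists, while the 6-week arrays lie at or above the controls in the matrix list and below all short-term arrays.

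A test of time within the long-term group also called no gene. In a fit with the 6-week arrays, the 16- and 22-week arrays and the controls as 3 groups, an alternative added after the data were seen, 0 of 10539 genes (0%) were called between the later and the 6-week arrays. The smallest adjusted p was 0.41, and 1167 genes (11.1%) had an unadjusted p under 0.05 (limma). Against the controls 0 genes were called for either time, with 680 (6.45%) at an unadjusted p under 0.05 for the later arrays and 470 (4.46%) for 6 weeks. Time and rat cannot be told apart after 6 weeks, since 16 and 22 weeks hold 1 rat each.

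No difference in spread between the groups was detected with 4 arrays each. The mean root mean square log2 difference between pairs of arrays was 0.57 in the long-term group and 0.52 among the controls, a difference of 0.05 (p = 0.83, exact 2-sided permutation test over 70 assignments, smallest possible 0.0286). Without the 22-week array the difference was -0.04 (p = 0.314, exact 2-sided permutation test). The closest array to control 4 (rat 61) was the tenotomized muscle of the same rat, with a root mean square difference of 0.37, and the closest to the 22-week array was control 1 at 0.59.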

How the data were processed

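The authors' deposited values are MAS5 probe set signals, a linear intensity per probe set and array, per the submitters' processing notes; the scaling target and software version are not given in the sources used here. Biotin-labelled cRNA from 1 muscle was hybridised to each array, per the labels' protocols. Array medians spanned 0.73 on the log2 scale, so all arrays were shifted to 1 common median. Signals under the pooled 25th percentile (9.69) were raised to it and log2 was taken. Of 31099 probe sets, 57 controls were left out, 20826 carried 1 gene symbol, 436 several and 9780 none. For each of 14217 genes the brightest probe set was used, and 10539 genes above the pooled 40th percentile (22.0) on at least 4 of the 8 arrays were tested.

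Long-term and control arrays were fitted in limma 3.58.1 (R 4.3.3), with an intensity trend, on the 8 arrays alone and with Benjamini-Hochberg adjustment over all genes tested at 0.05. The procedure was tested on simulated data. Arrays were taken as independent; rat numbers in the labels pair 2 controls with 2 long-term muscles, and fits with rat as a replicate block were alternatives. Genes named are the 10 with the smallest p-values in each direction, 24 index genes, the 2 members with the smallest p-values in each of 33 lists and the 3 genes farthest above and below per long-term array; Mybpc2, Pln, Tnnt3, Tnni2 and Tnnc2 and the other genes named with values were chosen after their values were seen. The members and lists were chosen with earlier results of these data known. No genome position is given, since the labels name no build.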

Additional observations from a re-analysis of the deposited data

Results flagged for a closer look

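In 27 of the 294 groups of 4 arrays examined (each gene of the naming rule or named with values, and each technical measure, in each group) 1 array lay far from the other 3. Chance marks about 1 group in 20 where values were not chosen by what they show. Of the 27, 5 belong to genes chosen for 1 array or after their values were seen (88 groups), S100a8, S100a9, Zic2, Per3 and Sln, so that rate does not apply to them; the other 22 came from 206 groups, which include genes chosen for small p-values. On the 22-week array the calprotectin genes S100a8 and S100a9, products of granulocytes, read 9.03 and 10.11 (log2 signal), with the nearest of the other long-term arrays at 6.00 and 7.45. In the clock genes it read 8.88 in Per3 and 6.75 in Nfil3. It read low in the proteoglycan Dcn (10.03) and in RT1-Ba, an antigen presentation gene (5.62). The same array read low in Adipoq, the adipocyte hormone adiponectin, at 5.30 and high in the respiratory complex subunit Ndufs1 at 12.59. Its poly-A spike-in signal of 249, its hybridisation spike-in signal of 1689 and its ratio of 3' to 5' Gapdh probe sets of 2.78 also lay far from the other 3 long-term arrays. These spike-in signals are after the shift to a common median, and on the deposited scale they were 189 and 1281. The Gapdh ratio did not set this array apart from the controls, since control 1 also had 2.78. The 16-week array stood apart on the side of the controls in Rfx2 (6.43), Tppp3 (10.74) and Reep6 (8.29). The 6-week array of rat 62 was marked in Zic2 (3.85) and in Mstn (3.84), which lay at the floor on the other 3.

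Among the controls control 3 was high in Ppargc1a (11.34), Trim63 (11.22), Fam216b (7.34) and Mstn (4.21) and low in Phkg1 (6.52). Control 4 (rat 61) was high in Myh3 (10.74) and Sln (11.71) and low in the slow light chain Myl3 (12.84). Control 1 was high in Ndufs1 (12.30), Atg5 (8.31) and Cdc20 (5.58). The high Myh3 control belongs to the rat whose tenotomized muscle read 11.10.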

How the results depend on the processing

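The count of 0 called genes held in every fit chosen beforehand but 1: 4 other scalings, 2 other floors, 2 other filters, all 14 arrays in 1 fit, each probe set tested, no intensity trend, array weights, either time alone, rats with 1 array only, rat as a random replicate block and each array left out in turn. The exception was the paired fit of rats 61 and 62 with rat as a fixed replicate block, with 147 genes called, 63 higher and 84 lower. Without controls 3 and 4, chosen after seeing the data, 1 gene was called, which was lower. With the 16- and 22-week arrays against controls 2 and 3 only, the share of genes with an interval inside 2-fold was 54.5%, against 87.6%. Leaving out 1 array in turn, that share ran from 82.6% to 86.8% and the difference in spread from -0.035 (without the 22-week array) to 0.089. The count at an unadjusted p under 0.05 was 408 without control 4 and 406 without the 16-week array, against 245, and without control 3 it was 1.53% of genes, against 2.32%. The sign of 35 of 102 named genes turned in at least 1 setting, in 107 of 2435 values, none of them called; the 20 genes with the smallest p-values kept their sign in all 474. List medians turned sign in 137 of 792 values and moved by over 0.2 in 63. Where a value moved, the cause was not tested. The interval lay inside 2-fold for 59.3% of the dimmest 20% of genes and for 97.5% of the brightest 20%.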

Other observations

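Clock genes, which follow the time of day, were read on each array because the labels give no hour of dissection. On the 22-week array Per3 read 8.88, Nr1d1 10.19, Dbp 9.42 and Bhlhe41 9.86 (log2 signal), each above the other 7 arrays, which ran from 5.68 to 6.71 in Per3 and from 7.46 to 8.83 in Nr1d1. Nfil3, a repressor of opposite phase, read 6.75 there and 8.79 to 10.40 on the other 7, and Bmal1 read 6.93 against 7.37 to 7.86. Not all members went with these: Per1 (7.49) and Per2 (7.66) lay within the range of the other 7, and Clock (10.01) and Cry1 (9.44) lay above it. The 22-week array was the highest of the 8 in 9 of 16 clock genes, against 41% of all genes tested. It was the lowest in 3, against 12.4%. Of the 16 clock genes tested 0 were called between the groups, and the list median was 0.20, or 0.00033 without the 22-week array. Nr4a3, an immediate early nuclear receptor that exercise raises in muscle, had the lowest difference of all genes tested at -2.23 (interval -4.72 to 0.27), while its other 2 probe sets read -0.35 and -1.41. It read 9.43 and 10.66 on controls 2 and 3 and 8.68 on the 16-week array, but 5.51 to 6.31 on the control and 6-week arrays of rats 61 and 62 and 3.28, the floor, at 22 weeks. Its order thus followed the sets of rats seen on the principal components and not the groups.

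Among genes that set a single long-term array apart, follistatin (Fst) read 7.98 on the 6-week array of rat 61, and Hk2, hexokinase of muscle, read 8.08 on that of rat 62 beside 6.37 to 7.17 on the other 7. At 16 weeks Hpd, an enzyme of tyrosine breakdown, read 9.02 and the other 7 arrays 6.00 to 7.57. At 22 weeks Chad and Col5a3, both matrix genes, read 3.73 and 4.88, with the lowest of the other arrays at 5.91 and 7.06. Of 4645 probe sets without exactly 1 gene symbol, 0 were called (limma) and 168 had an unadjusted p under 0.05.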
